A study of Mus musculus with 32 samples.

Results

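The data compared here are the H3K27me3 peak lists of non-growing mouse oocytes at postnatal day 6 (P6) from ovaries of Eed heterozygous controls and of wild-type mice, 4 of the 32 samples of the series in 2 groups of 2. Both lists were taken by their group names, and together they hold 129465 of the 1035144 peaks in the 16 lists of the series. The heterozygous control (PRC2ctrl) has the genotype EedF/+; Ddx4-Cre, that is 1 floxed and 1 wild-type Eed allele with a Cre recombinase driven by the germ-cell gene Ddx4, and the wild type (WT) has no transgene named in its label. The genotypes therefore differ in the Eed allele and in the presence of Ddx4-Cre, and no group of the series holds either alone. For context the text also uses oocytes of PRC2cKO (EedF/-; Ddx4-Cre), PRC1ctrl (Ring1-/-; Rnf2F/+; Ddx4-Cre) and PRC1cKO, whose label reads Ring1-/-; Ring1F/-; Ddx4-Cre, at P6 and, for the PRC1 groups, growing oocytes at P7, and WT oocytes at embryonic day E18.5, P1 and P7. The PRC1 groups, controls included, lack Ring1. The labels name neither the strain of the mice nor the number of animals behind a sample. CUT&Tag, the assay, uses an antibody to direct a transposase to chromatin with a given mark, so that DNA beside the mark is cut and sequenced. Each group has 1 deposited list, so differences between the lists have no replicate check and no p-value is given; intervals cover counting error only, and read depth is unknown.

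H3K27me3 is set by Polycomb repressive complex 2 (PRC2), whose catalytic subunit EZH1 or EZH2 works with SUZ12 and EED. EED binds H3K27me3 and stimulates the enzyme, which lets the mark spread along chromatin. In oocytes the mark forms wide domains over genes that are not in use, and at some genes it is passed to the embryo and silences the maternal copy. One working Eed allele is commonly used as the control for its deletion, and the comparison of that control with WT addresses how alike the 2 H3K27me3 maps are.

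The sequences below are the 250 bases upstream of 6 gene starts that lay wholly inside a peak in one list and wholly outside in the other, chosen after their values were seen because they show what such a call covers. They come from RefSeq on GRCm38.p6 and are written 5′ to 3′ in the direction of the gene, with each CG dinucleotide in capitals. CG, which reads the same on both strands, was present in 93.4% of the 21263 upstream stretches of the same length in the table, at a median of 10 copies.
The first 3 were covered over all 250 bases in PRC2ctrl and over 0 in WT. They belong to Ddx4, an RNA helicase of germ cells (chr13:112652311-112652560, minus strand), to Cdkn1b, the cell-cycle inhibitor p27 that holds primordial follicles dormant (chr6:134920151-134920400, plus strand), and to Syt16, a synaptotagmin family gene (chr12:73997527-73997776, plus strand).
Ddx4: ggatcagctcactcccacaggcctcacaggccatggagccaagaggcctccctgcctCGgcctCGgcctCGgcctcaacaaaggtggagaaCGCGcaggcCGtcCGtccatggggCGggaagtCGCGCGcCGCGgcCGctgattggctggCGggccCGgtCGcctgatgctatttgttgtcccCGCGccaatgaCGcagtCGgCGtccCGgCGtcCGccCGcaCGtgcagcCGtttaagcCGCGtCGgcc
Cdkn1b: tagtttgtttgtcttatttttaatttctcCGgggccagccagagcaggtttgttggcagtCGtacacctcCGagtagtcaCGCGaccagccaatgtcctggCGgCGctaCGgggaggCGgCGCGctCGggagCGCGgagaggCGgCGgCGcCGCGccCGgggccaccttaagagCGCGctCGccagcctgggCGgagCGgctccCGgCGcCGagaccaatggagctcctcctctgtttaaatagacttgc
Syt16: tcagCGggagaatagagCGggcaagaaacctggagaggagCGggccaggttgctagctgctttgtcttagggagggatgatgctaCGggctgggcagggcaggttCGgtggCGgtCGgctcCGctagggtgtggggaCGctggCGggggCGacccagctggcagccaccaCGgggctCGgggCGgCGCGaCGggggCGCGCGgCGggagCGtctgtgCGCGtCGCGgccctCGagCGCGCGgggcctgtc
The other 3 were covered over 0 bases in PRC2ctrl and over all 250 in WT. They belong to Ppp1r9a, which encodes neurabin and is imprinted in the placenta (chr6:4902725-4902974, plus strand), to the pluripotency factor gene Nanog (chr6:122707239-122707488, plus strand), and to Trpm8, a cold-sensing ion channel (chr1:88306485-88306734, plus strand).
Ppp1r9a: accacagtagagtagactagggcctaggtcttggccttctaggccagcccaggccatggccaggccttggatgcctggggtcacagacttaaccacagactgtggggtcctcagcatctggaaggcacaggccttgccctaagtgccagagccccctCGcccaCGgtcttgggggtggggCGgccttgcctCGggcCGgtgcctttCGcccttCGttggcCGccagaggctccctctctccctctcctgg
Nanog: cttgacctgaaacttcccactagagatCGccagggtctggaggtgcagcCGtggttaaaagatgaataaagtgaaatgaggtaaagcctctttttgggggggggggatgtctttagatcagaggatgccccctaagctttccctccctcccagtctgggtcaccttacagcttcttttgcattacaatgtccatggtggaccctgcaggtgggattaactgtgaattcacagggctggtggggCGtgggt
Trpm8: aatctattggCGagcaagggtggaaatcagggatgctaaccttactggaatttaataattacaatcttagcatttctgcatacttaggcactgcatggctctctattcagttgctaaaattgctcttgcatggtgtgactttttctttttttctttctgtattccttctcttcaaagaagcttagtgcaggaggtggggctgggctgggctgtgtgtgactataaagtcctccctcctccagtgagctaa
The 3 upstream stretches covered in PRC2ctrl hold 31, 28 and 30 CG, and 9.83% of all upstream stretches hold 28 or more. The 3 covered in WT hold 8, 3 and 1. They are examples and not a sample of the genes in question: over the 17492 genes with an annotated start in the table, the upstream 250 bases were touched by a peak in both lists for 5283 genes, in PRC2ctrl alone for 485, in WT alone for 487 and in neither for 11237. Over all of these, the median number of CG was 5 (quartiles 2 to 14) for stretches touched in PRC2ctrl alone and 3 (1 to 9) for those touched in WT alone, against 7 for both and 12 for neither, so the gap between the printed examples is far wider than that between the classes.

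The cell type label was set against marker genes, on the understanding that H3K27me3 is usually absent from genes a cell uses. Of 9 oocyte genes, Dazl, Figla, Nobox, Sohlh1, Kit, Gdf9 and Zp3 had no peak within 5 kb of either gene end in either list. A gene counts as marked here if a peak lies within 1 kb of either end. Lhx8, an oocyte transcription factor gene, was marked in both lists, and Ddx4 was marked in PRC2ctrl alone. Within 5 kb of its ends Ddx4 was covered in both, over 5.60 kb in PRC2ctrl and 3.97 kb in WT. All 6 granulosa genes, all 5 stroma and theca genes and all 3 epithelial genes were marked in both lists. Of 6 blood and endothelial genes, 4 were marked in PRC2ctrl and 3 in WT, the difference being Ptprc, the leukocyte antigen CD45. The Ptprc call is a narrow one, with 0.1 kb of the 1 kb windows covered in PRC2ctrl. Within 5 kb of its ends Ptprc had 4.10 kb in PRC2ctrl and 3.67 kb in WT. Over the 20 markers of cells other than oocytes, peaks covered 256.0 kb in PRC2ctrl and 246.4 kb in WT.

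The PRC2ctrl list held fewer and wider peaks than the WT list and covered slightly more of the genome. There were 53667 peaks over 558.4 Mb in PRC2ctrl and 75798 peaks over 532.5 Mb in WT. Median peak width was 5.42 kb in PRC2ctrl and 4.34 kb in WT, and the 90th percentile was 21.8 kb and 13.5 kb in the same order. Peaks of 20 kb or more numbered 6107 in PRC2ctrl and 3843 in WT, and they carried 255.1 Mb and 138.0 Mb of the covered length. Peaks under 2 kb numbered 1396 in PRC2ctrl and 3099 in WT. The lowest total signal of any peak, the authors' own value, was 10510 in PRC2ctrl and 9546 in WT, so the weakest peaks listed differ between the lists. On each of the 19 autosomes and on X the median width was 1.18 to 1.35 times and the covered length 1.01 to 1.09 times that in WT. Chromosome Y had no peak in PRC2ctrl and 16 in WT, over 0.0466 Mb.

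**Figure D1:**
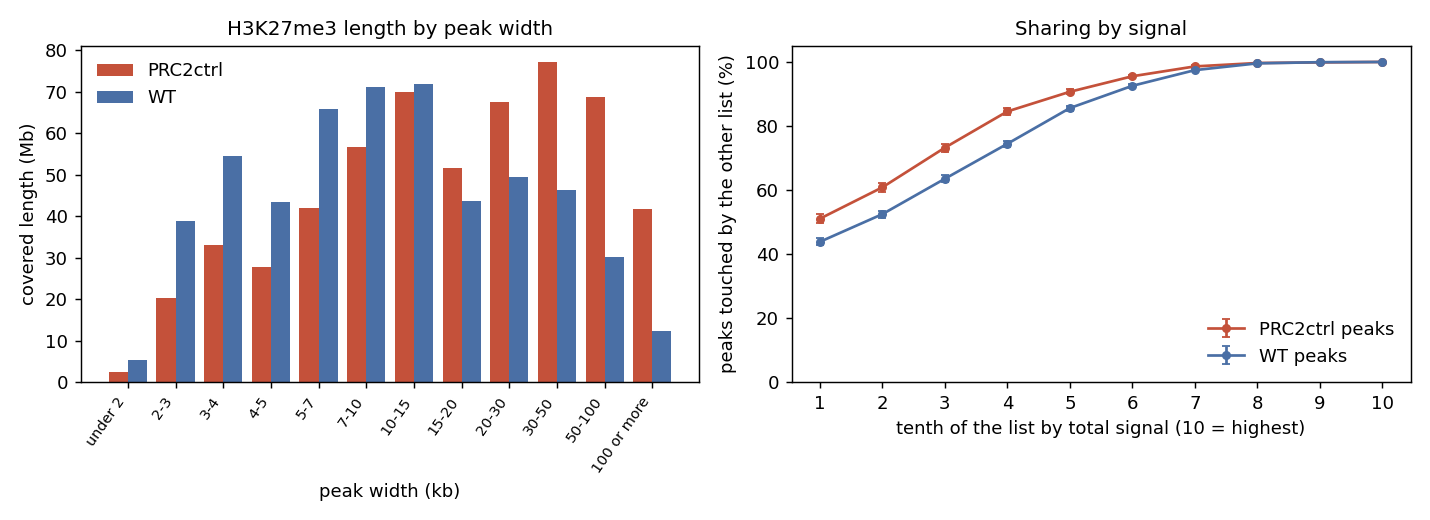
Left: bars give the covered length in Mb of H3K27me3 peaks by width class in kb, with PRC2ctrl beside WT; from the 15-20 kb class up PRC2ctrl has more length, and below it WT has more. Right: points give the percentage of peaks touched by a peak of the other list in each of 10 equal parts of a list ordered by total signal, with exact 95% intervals; it runs from 51.0% to 100% for PRC2ctrl peaks and from 43.8% to 99.99% for WT peaks.

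Other P6 H3K27me3 lists place the WT list at the narrow end. Median width was 5.78 kb in PRC1ctrl, 6.09 kb in PRC1cKO and 4.68 kb in PRC2cKO, with 51362, 50744 and 49615 peaks. All 4 P6 lists from mice with Ddx4-Cre held fewer peaks than WT. At P7 it was the other way: PRC1ctrl had 61336 peaks at a median of 4.31 kb and PRC1cKO 67213 at 3.62 kb, against 61088 at 5.88 kb in WT. At P6, peaks of 20 kb or more numbered 5654 in PRC1ctrl, 5688 in PRC1cKO and 4190 in PRC2cKO, against 3843 in WT. Which of genotype, strain, depth or peak calling goes with the difference in width cannot be told apart with 1 list per group.

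Much of the width difference lay in WT peaks that were joined in PRC2ctrl. On the assembled chromosomes, 10742 PRC2ctrl peaks (20.0%) touched 2 or more WT peaks, and they took in 27007 WT peaks and 284.6 Mb. The reverse was rare: 745 WT peaks (0.984%) touched 2 or more PRC2ctrl peaks. PRC2ctrl peaks filled 16265 gaps between WT peaks, with a median gap of 1.81 kb, and these gaps made up 37.3 Mb, or 30.6%, of the bases found in PRC2ctrl alone. A further 55.4 Mb (45.4%) lay at the flanks of shared peaks and 29.3 Mb (24.0%) in peaks with no WT counterpart. Of the bases found in WT alone, gaps between PRC2ctrl peaks made up 3.02 Mb (3.14%), flanks 45.0 Mb (46.9%) and peaks with no PRC2ctrl counterpart 48.0 Mb (49.99%). Those 760 gaps had a median of 3.59 kb (quartiles 3.15 to 4.38). Joining peaks under 3 kb apart took the WT list from 75798 to 56421 peaks and the PRC2ctrl list from 53667 to 52630. The PRC2ctrl list thus held few gaps that short, and whether peak calling differed between the lists was not tested.

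The PRC2ctrl peak that took in the most WT peaks spanned the Sox1 domain, chr8:12117913-12515669 (GRCm38). Sox1 encodes a transcription factor of neural progenitors. It was 1 peak of 397.8 kb in PRC2ctrl, against 16 peaks covering 92.2% of that stretch in WT. The other P6 lists had 6 peaks there in PRC2cKO, 6 in PRC1ctrl and 7 in PRC1cKO, over 84.7% to 91.1% of the stretch. WT oocytes at E18.5 and at P1 had 16 and 8 peaks. A peak of 348.9 kb in PRC2ctrl at chr6:121207119-121555993, over the transporter genes Slc6a12 and Slc6a13 and over Iqsec3, Usp18 and Tuba8, took in 11 WT peaks that covered 92.5% of it. At both sites the lists differed more in the number of breaks than in the covered bases. That was less so at the PRC2ctrl peaks ranked 2 and 4 by the number of WT peaks taken in. WT covered 72.7% of the first (chr8:57188168-57302709, 13 WT peaks) and 77.7% of the second (chr14:41231990-41375187, 11 WT peaks). It covered 92.1% of the peak ranked 3, chr5:111489607-111910695.

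**Figure D2:**
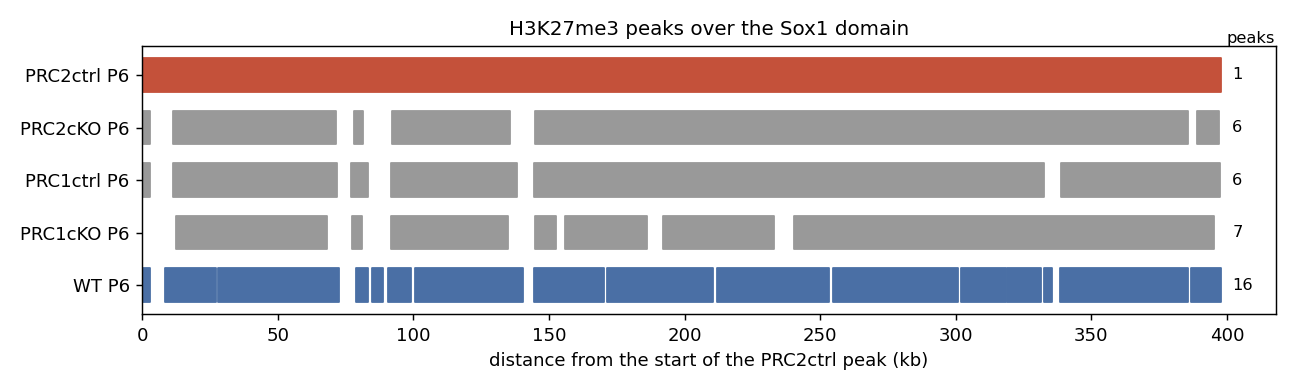
Bars mark H3K27me3 peaks over the Sox1 domain, by distance in kb from the start of the PRC2ctrl peak, for the 5 P6 lists; the number of peaks is at the right of each row. PRC2ctrl has 1 unbroken peak and WT 16 with short gaps.

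Most of the mark was common to both lists. Of PRC2ctrl peaks 85.4% (exact 95% interval 85.1 to 85.7) were touched by a WT peak, and of WT peaks 80.9% (80.6 to 81.2) by a PRC2ctrl peak. The lists shared 436.3 Mb, with 122.1 Mb in PRC2ctrl alone and 96.2 Mb in WT alone, a Jaccard index of 0.666. For PRC1ctrl and WT that index was 0.603, for PRC2ctrl and PRC1ctrl 0.621, and for PRC2cKO and PRC2ctrl 0.582; these pairs share lists and are given side by side. Peaks in one list alone were weak within their own list, at a median total-signal percentile of 15.7 for those in PRC2ctrl alone and 18.1 for those in WT alone. In the top 10% by signal, 0 PRC2ctrl peaks and 1 WT peak had no counterpart. The count of 0 covers 5361 peaks.

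When overlapping peaks of both lists were merged, 45016 of 67300 regions held peaks of both, 7833 of PRC2ctrl alone and 14451 of WT alone. Over the 45016 shared regions, Spearman's rho between the lists was 0.893 for total signal, 0.846 for the largest signal and 0.786 for the mean signal per base, as a description across regions that lie along the same chromosomes. The median region differed by 5.47 percentile points of total signal. A difference of 25 points or more was seen in 1931 regions (4.29%) ranked higher in PRC2ctrl and in 1650 (3.67%) ranked lower. Shared regions were covered over a median of 6.47 kb in PRC2ctrl and 6.02 kb in WT. Where a single peak in each list made up the region (34052 regions), the medians were 4.85 kb in PRC2ctrl and 4.70 kb in WT.

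The 5 shared regions with the highest total signal were the same 5, in the same order, in both lists. The second lay at Gas8. The third held Foxf1 and Irf8, transcription factor genes of mesenchyme and of blood cells, and the fourth Prdm16, a regulator of brown fat. The fifth held Myo18b and Sez6l.

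The region upstream of Ddx4 stood first of all 45016 shared regions by the ratio of mean signal between the lists, and first by the ratio of largest signal. It spans chr13:112652032-112659173 and takes in the start of Ddx4 and the nearer end of Slc38a9, a lysosomal amino acid sensor. That end of Slc38a9 lies at 112656189, and the peaks of both lists covered it, reaching 112658393 in PRC2ctrl and 112659173 in WT. Among shared regions the mean signal of this region ranked at percentile 99.9 in PRC2ctrl and 44.4 in WT. Its total signal ranked at 92.9 in PRC2ctrl and 45.5 in WT. Within its own list the peak was number 52 of 53609 by mean signal in PRC2ctrl and number 35768 of 75732 in WT. The largest signal in the peak was 163 in PRC2ctrl and 18 in WT, on scales that need not be the same.

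By mean signal, the same peak was among the highest in every list from mice whose label names Ddx4-Cre. Its mean-signal percentile within the peaks of a list was 99.9 in PRC2cKO, 99.9 in PRC1ctrl and 99.9 in PRC1cKO at P6, and 99.7 in PRC1ctrl and 99.9 in PRC1cKO at P7. In the H2AK119ub lists, the mark of Polycomb repressive complex 1, it was 99.7 in PRC2ctrl and 99.6 in PRC2cKO. In WT H3K27me3 lists it was 74.9 at E18.5, 75.02 at P1, 52.8 at P6 and 25.1 at P7, and in WT H2AK119ub lists it was 71.2, 91.2 and 85.5 up to P6 with no peak at P7. The 8 lists with Ddx4-Cre and the 7 WT lists with a peak did not overlap in this percentile. By total signal they did, at 73.8 for H3K27me3 in PRC1ctrl at P7 and 74.6 for H2AK119ub in WT at P1. The region is the one with the largest ratio between PRC2ctrl and WT, and how many other regions separate these lists was not counted. The peak edge lay 0.279 kb inside the gene in PRC2ctrl and 1.35 kb upstream in WT, counted from the start used for the printed sequence. From the outermost annotated end of Ddx4 the WT edge lay 1.03 kb away, just beyond the 1 kb that counts as marked, so the call of Ddx4 as marked in PRC2ctrl alone is a narrow one. The covered length within 5 kb of the Ddx4 ends was 5.60 kb in PRC2ctrl and 3.97 kb in WT. As background, Ddx4-Cre transgenes carry Ddx4 promoter sequence. Reads from a transgene copy and from the gene itself cannot be told apart in these lists, and the part of either in the rank was not tested.

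**Figure D3:**
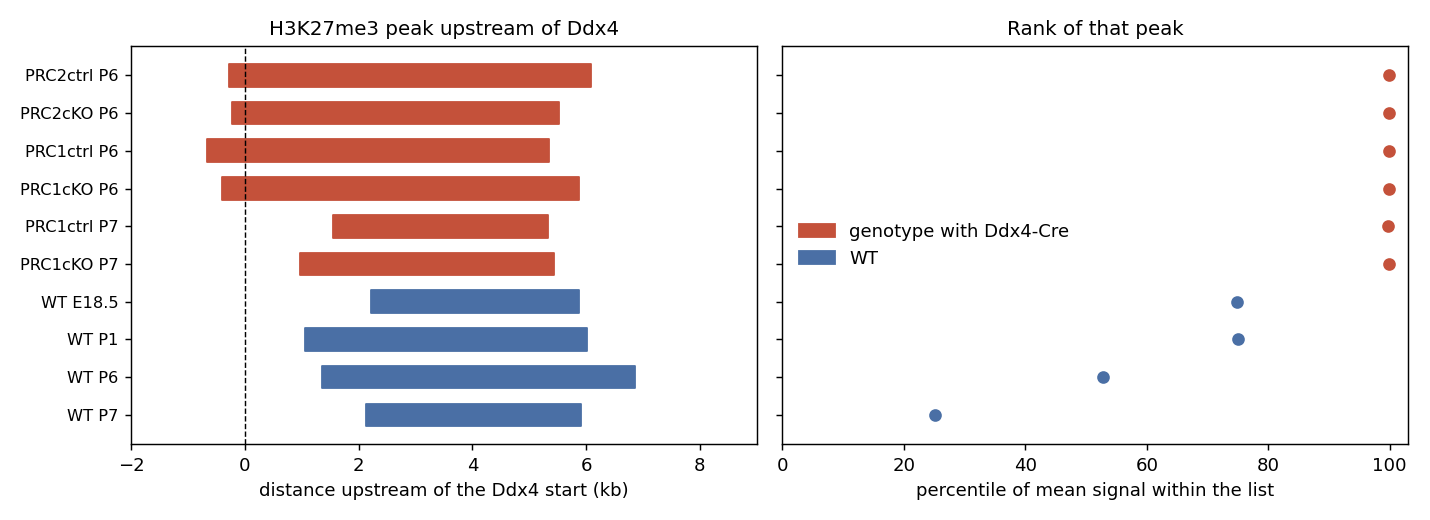
Left: bars mark the H3K27me3 peak upstream of Ddx4 by distance in kb from the gene start (dashed line, upstream to the right) in 10 lists. Right: points give the percentile of that peak's mean signal within its list; the 6 lists with Ddx4-Cre lie at 99.7 to 99.9, and the 4 WT lists at 25.1 to 75.02.

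Other shared regions of at least 5 kb with a large rank difference had little in common by annotation. At Nlrp1b, an inflammasome sensor gene (chr11:71240896-71255001), the total-signal percentile was 71.6 in PRC2ctrl and 21.7 in WT, with 14.1 kb and 5.55 kb covered. At Mmp15, a membrane metalloproteinase gene (chr8:95368216-95379898), it was 20.9 in PRC2ctrl and 69.1 in WT, with 5.25 kb and 10.6 kb covered. PRC1ctrl covered 88.0% of the Mmp15 region and PRC2cKO 0%. At Rara, the retinoic acid receptor alpha gene (chr11:98958464-98972772), it was 32.3 in PRC2ctrl and 72.0 in WT, and PRC1ctrl covered 71.0% and PRC2cKO 0% of the region. Among the other 5 largest differences in this direction, PRC2cKO covered 0% of the regions nearest to Grap and to Dele1. It covered 100% of the region nearest to Ddx18, which lay 494.9 kb from that gene. The region with the largest rank difference in favour of PRC2ctrl, on chromosome 18, lay 391.7 kb from the nearest gene end, that of Prelid2, at percentile 72.7 in PRC2ctrl and 18.49 in WT.

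Regions in one list alone were short, and few held a gene end. Their median width was 3.36 kb for PRC2ctrl alone and 3.11 kb for WT alone, against 7.57 kb for shared regions. A gene end lay inside the region or within 1 kb of it for 4.83% of PRC2ctrl-alone and 5.01% of WT-alone regions, against 17.9% of shared regions, which are wider. The nearest gene end was over 100 kb away for 47.6% of PRC2ctrl-alone, 43.2% of WT-alone and 34.4% of shared regions. Among wider regions the gap was smaller or gone: that share was 45.4% for PRC2ctrl alone and 36.2% for WT alone at 5 kb or wider, against 37.2% for shared regions of 5 to 10 kb. The widest region in PRC2ctrl alone was 31.2 kb at chr14:7609531-7640699, near Gm38418. Others were 30.4 kb at Gm2244, 22.2 kb near the sialyltransferase gene St6gal2, 19.4 kb near Bsph2, a sperm-binding protein gene, and 18.4 kb with no gene end within 496.6 kb. The widest in WT alone were 16.7 kb at Itpr3, an inositol trisphosphate receptor gene (chr17:27086811-27103535), and 16.7 kb at Aldh4a1, a proline breakdown enzyme gene (chr4:139627556-139644250). PRC1ctrl covered 92.8% of the Itpr3 region and 0% of the Aldh4a1 region, and PRC2cKO covered 0% of both. The next 3 were 13.5 kb on X, 13.1 kb on X and 12.4 kb on chromosome 2. Their nearest genes were Tmsb4x at 142.8 kb, Atrx at 9.84 kb and Api5 at 614.1 kb. PRC2cKO covered 75.8%, 32.9% and 39.3% of these regions in the same order, and PRC1ctrl 0%, 20.9% and 0%.

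The other lists of the series covered regions found in one list alone far less than shared regions. PRC1ctrl at P6 covered 31.1% of the bases of PRC2ctrl-alone regions and 31.4% of WT-alone regions, against 74.4% of shared regions. PRC2cKO covered 28.7% of PRC2ctrl-alone and 17.8% of WT-alone bases, against 63.6% of shared ones. WT lists of other ages were not always nearer to WT at P6: at P1 they covered 36.5% of PRC2ctrl-alone and 33.3% of WT-alone bases, and at P7 24.5% and 41.0%. H2AK119ub of WT at P6 covered 24.9% of PRC2ctrl-alone and 39.8% of WT-alone bases, and H2AK119ub of PRC2ctrl covered 18.4% and 26.8%. WT-alone regions were covered over a larger share by H2AK119ub than PRC2ctrl-alone regions in both genotypes.

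**Figure D4:**
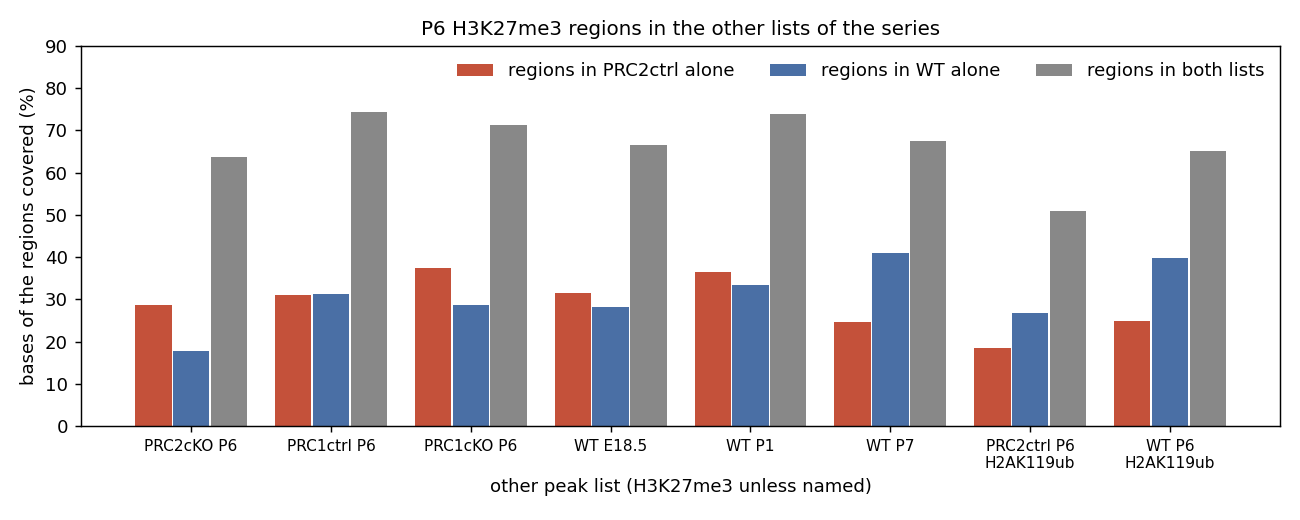
Bars give the percentage of the bases of P6 H3K27me3 regions found in PRC2ctrl alone, in WT alone and in both lists that were covered in 8 other lists of the series. Shared regions are covered over 50.8% to 74.4% and regions in one list alone over 17.8% to 41.0%.

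Over 27213 windows of 100 kb the covered length agreed within 5 kb in 70.7%, with a Spearman's rho of 0.952 across windows. It was higher in PRC2ctrl by 20 kb or more in 282 windows (1.04%) and lower in 52 (0.191%). The ratio of PRC2ctrl to WT length was 1.06 in windows with no gene and 1.01 in windows with 6 or more genes. The window with the largest excess, chr17:70100001-70200000 within Dlgap1, a postsynaptic scaffold gene, was covered over 78.3 kb in PRC2ctrl and 7.80 kb in WT. It was covered over 61.4 kb in PRC2cKO, 55.8 kb in PRC1ctrl and 55.4 kb in PRC1cKO, and over 4.06 kb to 7.45 kb in WT at E18.5, P1 and P7. At chr17:55500001-55600000, with St6gal2 and Vmn2r118, the length was 56.5 kb in PRC2ctrl and 1.37 kb in WT, and 54.1 kb in PRC2cKO, 44.9 kb in PRC1ctrl and 52.1 kb in PRC1cKO, against 5.92 kb to 10.2 kb in WT at the other ages. At these 2 windows the P6 lists with Ddx4-Cre lay together and apart from WT of all 4 ages. They also lay apart from WT at the windows ranked 2 and 4, with Gm38418 and with Gm10340 and Gm5795. They did not at the window ranked 5, with Shroom3, where PRC1ctrl had 19.0 kb, WT 18.4 kb at P6 and 28.4 kb at E18.5. These windows were picked by their excess in PRC2ctrl over WT at P6, and the share of all windows with such a separation was not counted. The largest deficit, chr2:35700001-35800000 over Dab2ip and Ttll11, was 12.3 kb in PRC2ctrl and 54.4 kb in WT, and there PRC1ctrl had 49.98 kb and PRC2cKO 13.3 kb. In the deficits ranked 2, 3 and 4, PRC2cKO had 40.7, 45.5 and 38.0 kb. PRC2ctrl had 12.3, 12.2 and 11.5 kb there, and WT 51.0, 47.5 and 42.7 kb. In the deficit ranked 5, PRC2cKO had 3.37 kb, against 0 kb in PRC2ctrl and 31.2 kb in WT.

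Genes were then compared by their ends: a gene counts as marked if any peak base falls within 1 kb to either side of its annotated start or end. Of 21887 protein-coding genes, 9142 were marked in PRC2ctrl and 9310 in WT. A total of 8527 were marked in both, 783 were lost (marked in WT and unmarked in PRC2ctrl, 3.58% of genes) and 615 were gained (marked in PRC2ctrl and unmarked in WT, 2.81%). For PRC1ctrl against WT the same counts were 1069 lost (4.88%) and 760 gained (3.47%), for PRC2cKO against WT 2043 (9.33%) and 382 (1.75%), and for PRC2ctrl against PRC1ctrl 817 (3.73%) and 958 (4.38%). The first 3 comparisons share the WT list. Which of losses and gains was the larger depended on how the lists were matched: with equal numbers of peaks it was 477 lost and 971 gained, and with equal covered length 982 and 486.

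Many lost genes kept some of the mark nearby. Within 5 kb of the gene ends, lost genes had a median covered length of 1.35 kb in PRC2ctrl and 4.50 kb in WT, and 342 of the 783 had none left in PRC2ctrl. Gained genes had 4.72 kb in PRC2ctrl and 1.80 kb in WT, and 233 of the 615 had none in WT. The peaks concerned were of low or middle rank: those at lost genes had a median width of 4.24 kb and total-signal percentile of 39.1 in WT, and those at gained genes 6.21 kb and 47.2 in PRC2ctrl. At genes marked in both lists the covered length was 10.45 kb in PRC2ctrl and 10.2 kb in WT, the peaks were 19.1 kb wide in PRC2ctrl and 12.4 kb in WT, and their percentile was 90.9 in PRC2ctrl and 91.1 in WT. At kept genes the peaks differed in width and hardly in rank. In covered length, 410 genes (1.87%) were higher in PRC2ctrl by 5 kb or more and 272 (1.24%) lower, and the median difference over all genes was 0 kb.

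Genes lost or gained were marked in some of the other lists. PRC1ctrl marked 43.9% of lost, 46.7% of gained and 92.6% of kept genes, and 3.95% of genes unmarked in both. PRC2cKO marked 15.1% of lost and 28.6% of gained genes, against 83.8% of kept genes.

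The genes that PRC2 is best known to silence were marked without exception in both lists. All 158 genes of the Hox clusters and the list of developmental transcription factors and all 57 clustered protocadherins were marked in PRC2ctrl and in WT. Over those 158 genes the median width of the highest-signal peak at the gene was 82.7 kb in PRC2ctrl and 47.1 kb in WT, at total-signal percentiles of 99.4 and 99.6 in the same order. That peak was wider in PRC2ctrl at 129 of the 158 and wider in WT at 29, against 6015 (70.5%) and 2509 of all 8527 genes marked in both lists. Neighbouring genes, those of a Hox cluster above all, share a peak: with each pair of peaks counted once, the peak was wider in PRC2ctrl in 104 of 124 pairs (83.9%), against 5001 of 7078 (70.7%) over all genes marked in both, and the medians for the 124 were 64.7 kb in PRC2ctrl and 41.4 kb in WT. At Foxl2, the granulosa cell fate regulator, this peak was 60.3 kb in PRC2ctrl and 29.6 kb in WT. At Nr2f2, a stromal nuclear receptor, it was 140.2 kb in PRC2ctrl and 55.1 kb in WT, and at Gata1, the erythroid factor, 134.7 kb in PRC2ctrl and 43.9 kb in WT. Their total-signal percentiles were 99.2 to 99.8 in PRC2ctrl and 99.2 to 99.7 in WT, so wider peaks stood at nearly the same rank. These are widths of single peaks, so a domain broken by short gaps counts by 1 of its pieces. Within 5 kb of the gene ends, Foxl2 had 12.5 kb and Gata1 20.0 kb in both lists, and Nr2f2 20.0 kb in PRC2ctrl and 19.2 kb in WT. The mean over Hox genes was 15.0 kb in PRC2ctrl and 14.8 kb in WT. Many of these windows were full, so length beyond them is not compared. Of 67 developmental signalling genes, 63 were marked in PRC2ctrl and 62 in WT, with Bmp5, a bone morphogenetic protein gene, gained. Dkk1, an inhibitor of Wnt signalling that was marked in both, was covered over 10.2 kb in PRC2ctrl and 5.11 kb in WT. Of 52 neuronal channel and receptor genes, 46 were marked in PRC2ctrl and 47 in WT.

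The core genes of PRC2 and PRC1 themselves were mostly bare. Eed, Ezh2, Suz12, Ring1 and Rnf2 had no H3K27me3 within 5 kb of their ends in either list. At Ezh1 the covered length was 0 kb in PRC2ctrl and 4.62 kb in WT, outside the 1 kb windows, and 3.94 kb in PRC1ctrl. Ezhip, which encodes an inhibitor of PRC2, was lost, with 0 kb in PRC2ctrl and 2.61 kb in WT, and PRC1ctrl and PRC2cKO also had 0 kb. Of 14 PRC2 genes 2 were marked in PRC2ctrl and 3 in WT. Of 29 PRC1 genes 12 were marked in PRC2ctrl and 10 in WT, with Rybp, a subunit of variant PRC1, and Scml2 gained. Of all genes 41.8% were marked in PRC2ctrl and 42.5% in WT, so the PRC1 share was close to that of all genes in PRC2ctrl and lower in WT. The 500 kb to each side of Eed held 32 peaks over 197.1 kb in PRC2ctrl and 42 peaks over 212.8 kb in WT, and the nearest peak lay 47.8 kb from the gene in PRC2ctrl and 43.5 kb in WT.

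Genes of oocyte growth and the maternal effect, those that the oocyte or early embryo needs, differed at few members. Of 57 such genes 18 were marked in PRC2ctrl and 16 in WT, with 3 gained and 1 lost, where 2.81% of all genes were gained and 3.58% lost. The net change was 2 genes, against 0 with equal covered length, 4 with equal numbers of peaks and 4 with 5 kb windows. Dppa3, which protects the maternal genome from demethylation, was covered over 4.70 kb in PRC2ctrl and 0 kb in WT, and over 4.08 kb in PRC2cKO and 0 kb in PRC1ctrl. WT at other ages had 0 kb there at E18.5, 7.64 kb at P1 and 8.03 kb at P7. Oosp2, an oocyte-secreted protein gene, had 6.03 kb in PRC2ctrl and 2.00 kb in WT, and Oog3, an oocyte-specific gene, 3.52 kb in PRC2ctrl and 0 kb in WT. The Oog3 peak was weak, at percentile 5.27 of total signal in PRC2ctrl. At E18.5, P1 and P7, WT had 18.0, 12.7 and 0 kb at Oosp2 and 0 kb each time at Oog3. Npm2, a histone chaperone gene of the egg, was lost. Among genes marked in both, Nlrp2, a maternal-effect gene, had 10.3 kb in PRC2ctrl and 3.37 kb in WT.

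In the primordial follicle list of 33 genes, 9 were marked in PRC2ctrl and 7 in WT, with Cdkn1b and Ddx4 gained and none lost, where 2.81% of all genes were gained and 3.58% lost. The net change was 2 genes, also with equal numbers of peaks and with equal covered length, and 0 with 5 kb windows. Cdkn1b was covered over 8.15 kb in PRC2ctrl, 8.55 kb in PRC1ctrl and 10.2 kb in PRC2cKO, against 2.06 kb in WT. Among 31 cell-cycle inhibitor and apoptosis genes, Bak1, a mediator of apoptosis, was gained with Cdkn1b, at 3.28 kb in PRC2ctrl and 0 kb in WT. The Bak1 peak was among the weakest in PRC2ctrl, at percentile 2.42 of total signal. At Bak1 WT had 7.80 kb at E18.5, 10.2 kb at P1 and 0 kb at P7. In the growth signalling list of 39, Igf1r, the receptor for insulin-like growth factor 1, was gained, at 8.28 kb in PRC2ctrl, 6.84 kb in PRC1ctrl and 5.67 kb in PRC2cKO, against 1.26 kb in WT. WT oocytes of earlier ages had more than WT at P6 at both genes: Cdkn1b had 11.0 kb at E18.5 and 10.7 kb at P1, and Igf1r 4.17 kb and 6.26 kb. In growing oocytes at P7, Cdkn1b had 0 kb in PRC1ctrl, 1.79 kb in PRC1cKO and 0.616 kb in WT.

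Meiotic and germline genes had losses and gains, where 3.58% of all genes were lost and 2.81% gained. The shares were 2.38% lost and 2.38% gained for meiotic prophase, 7.89% and 5.26% for germline, and 2.17% and 2.17% for spermatogenesis genes. Each of these shares rests on at most 3 genes. Of 42 meiotic prophase genes 9 were marked in each list, with Sycp1, a synaptonemal complex gene, gained (3.72 kb in PRC2ctrl, 0 kb in WT) and Cntd1, a crossover factor gene, lost (1.61 kb in PRC2ctrl, 5.204 kb in WT). The Sycp1 peak was weak, at percentile 7.50 of total signal in PRC2ctrl. Of 38 germline identity and genome defence genes 14 were marked in PRC2ctrl and 15 in WT, with Fkbp6, Mov10l1 and Nanog lost. Nanog had 0 kb in PRC2ctrl, PRC1ctrl and PRC2cKO, against 2.69 kb in WT. Its WT peak was among the weakest, at percentile 0.837 of total signal. H2AK119ub covered 14.9 kb at Nanog in PRC2ctrl and 11.9 kb in WT. Of 46 spermatogenesis genes 32 were marked in each list; Id4, a spermatogonial stem cell gene, was lost (0 kb in PRC2ctrl, 3.84 kb in WT) and Zpbp was gained. Piwil1, a piRNA pathway gene marked in both, had 8.64 kb in PRC2ctrl and 16.0 kb in WT.

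Imprinted genes were nearly balanced between losses and gains. The shares were 2.86% lost and 5.71% gained for genes imprinted through maternal H3K27me3, and 6.52% each for canonically imprinted genes. Over all genes 3.58% were lost and 2.81% gained, and each share of the imprinted lists rests on at most 3 genes. Of 35 genes imprinted through maternal H3K27me3, 29 were marked in PRC2ctrl and 28 in WT, with Gask1b and Rbms1 gained and Myoz2 lost. Gask1b had 9.92 kb in PRC2ctrl and 6.76 kb in WT, and Myoz2, a sarcomere gene, 2.13 kb in PRC2ctrl and 5.59 kb in WT. Slc38a4, an amino acid transporter gene of that list that was marked in both, had 10.0 kb in PRC2ctrl and 15.9 kb in WT. Of 46 canonically imprinted genes 26 were marked in each list, with Peg12, Snrpn and Tssc4 gained and Ppp1r9a, Zdbf2 and Zim1 lost. Tssc4 had 9.09 kb in PRC2ctrl and 5.69 kb in WT, and Ppp1r9a 5.91 kb in PRC2ctrl and 9.93 kb in WT. Igf2, the insulin-like growth factor 2 gene, was marked in both with 9.40 kb in PRC2ctrl and 16.9 kb in WT, and PRC1ctrl had 17.3 kb.

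Of the gene families taken by symbol, olfactory receptors held the most losses: 295 of 1110 were marked in PRC2ctrl and 321 in WT, with 64 lost (5.77%, against 3.58% of all genes) and 38 gained (3.42%, against 2.81%). The net direction for olfactory receptors turned under equal numbers of peaks. Among 397 Zfp zinc finger genes 78 were marked in PRC2ctrl and 89 in WT, with 19 lost (4.79%) and 8 gained (2.02%). Of 375 solute carriers 206 were marked in PRC2ctrl and 212 in WT, with 17 lost and 11 gained. Type 2 vomeronasal receptors lost 7 and gained 3 of 123, and type 1 receptors lost 5 and gained 7 of 230. Of 44 forkhead genes 34 were marked in PRC2ctrl and 33 in WT, with Foxp3, the regulatory T cell factor, gained, and covered length was higher in PRC2ctrl for 15 and lower for 2, against 6005 and 5313 of all genes. In the list of 26 housekeeping genes 0 were marked in PRC2ctrl and 2 in WT, Actb, which encodes beta-actin, and Reep5, an endoplasmic reticulum protein gene. Actb had 1.87 kb in PRC2ctrl and 5.05 kb in WT.

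Outside the lists, the 5 lost genes with the largest fall in covered length were Tmem189, a desaturase gene, Trpm8, Btbd11, Neu2, a sialidase gene, and Gsap. Trpm8 had 3.61 kb in PRC2ctrl and 16.5 kb in WT, and Neu2 0 kb in PRC2ctrl and 10.3 kb in WT. PRC1ctrl had 12.0 kb at Trpm8 and 0 kb at Neu2. The 5 gained genes with the largest rise were Syt16, Gm3095, Pira1, an immunoglobulin-like receptor gene of blood cells, Reg3a, an antimicrobial lectin gene, and Pramel11, of the Prame family. Syt16 had 13.9 kb in PRC2ctrl, 10.0 kb in PRC1ctrl and 4.26 kb in PRC2cKO, against 0 kb in WT. Pira1 had 13.1 kb in PRC2ctrl, 8.69 kb in PRC1ctrl and 7.24 kb in PRC2cKO, against 0 kb in WT. Pramel11, in a cluster of near-identical copies where read placement is uncertain, had 11.5 kb in PRC2ctrl, 11.9 kb in PRC2cKO and 0 kb in PRC1ctrl and in WT. WT at other ages was covered at these genes: Syt16 had 17.1 kb at E18.5, 18.0 kb at P1 and 0 kb at P7, and Pira1 5.32 kb, 3.84 kb and 6.14 kb. Pramel11 had 9.56 kb at P1 and 0 kb at E18.5 and at P7.

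**Figure D5:**
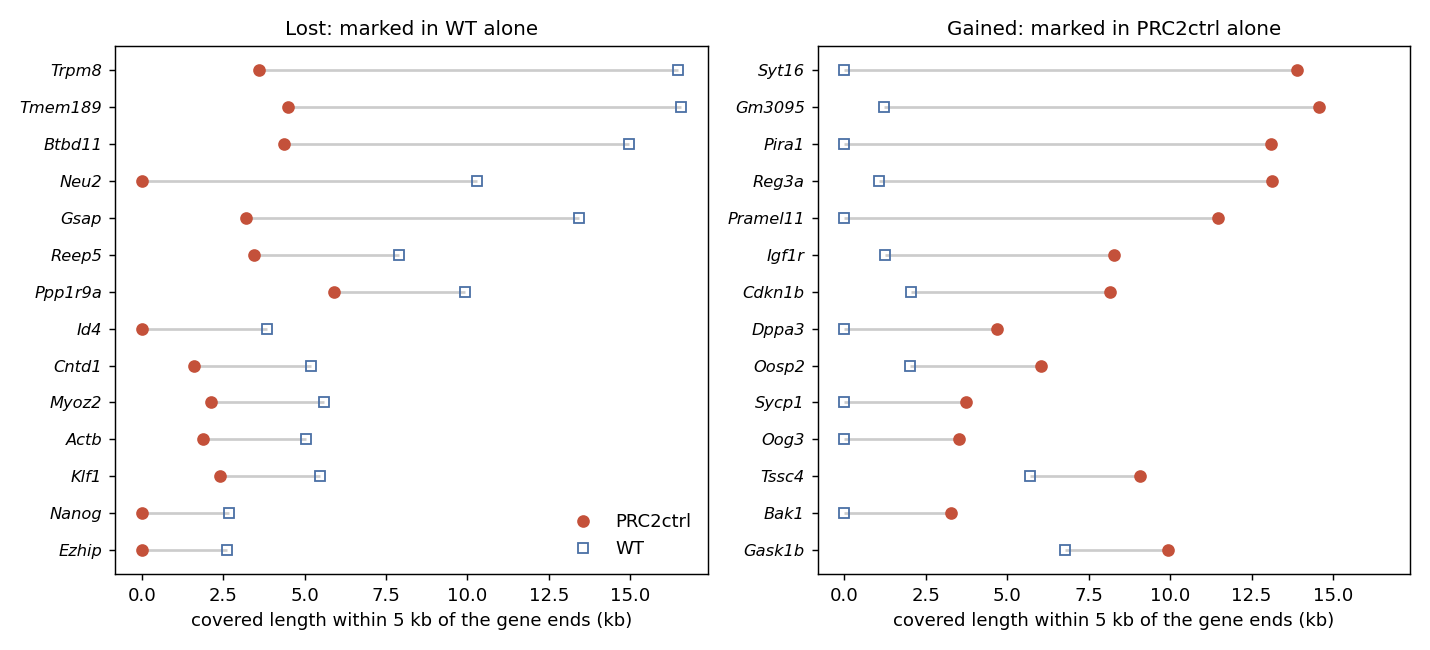
Points give the H3K27me3 length in kb within 5 kb of the ends of 14 lost and 14 gained genes, PRC2ctrl as filled circles and WT as open squares, joined by a line. At the lost genes WT lies to the right, at the gained genes PRC2ctrl, and Neu2, Id4, Nanog and Ezhip have 0 kb in PRC2ctrl.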

How the data were processed

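H3K27me3 CUT&Tag was done on P6 non-growing oocytes. Per the labels' protocols, S2 cells of Drosophila went into each reaction (2000 for 1000 oocytes is the example given), and reads were 150 bp long. The submitters' processing notes list Trim Galore 0.6.10, Picard 3.0.0, Bowtie2, SAMtools and deepTools, and GRCm38, mm10 and dm6 as builds, with no role for any. The peak caller, its threshold, any scaling by S2 reads and the way both samples of a group became 1 list were not given in the sources used here. For each peak the deposited lists hold the total signal and a score, the largest signal in the peak, as whole numbers of unknown scaling. The authors' values were used for ranking and filtering inside each list. Read depth is unknown.

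Peaks counted as shared from 1 bp of overlap. Ranks were taken over regions present in both lists. RefSeq genes of GRCm38.p6 were used; 812 of 837 listed symbols matched. Intervals are exact Clopper-Pearson at 95%. Python 3.11.15, numpy 2.4.6, pandas 2.3.3, scipy 1.17.1 and matplotlib 3.10.9 were used, and overlap and gene calls were tested on simulated data. Named genes are the 6 PRC core genes, of the 33 gene lists (19 by hand, 14 by symbol prefix) the 10 lost and 10 gained genes of largest difference in covered length, the 5 largest each way outside them, and the cell type markers; named regions and windows are the 5 largest of each kind. Other genes named from the lists (Igf2, Piwil1, Slc38a4, Nlrp2, Dkk1 and Kcnc2 among them) were chosen after their values were seen. A few items that these rules name are not reported here. The members and lists were chosen with earlier results of these data known. Genes of tandem families share near-identical sequence, so read placement there is uncertain.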

Additional observations from a re-analysis of the deposited data

How the results depend on the processing

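With 1 list per group, the counts carry no replicate error, and list length sets much of them. Cutting WT to the number of PRC2ctrl peaks gave 71.6% of PRC2ctrl and 92.5% of WT peaks shared, a Jaccard index of 0.660, 477 genes lost and 971 gained. Cutting PRC2ctrl to the covered length of WT gave 91.8% of PRC2ctrl and 74.5% of WT peaks shared, an index of 0.664, 982 lost and 486 gained. By construction, the first can only remove WT marks and the second only PRC2ctrl marks. The 75% of peaks with the highest signal gave 87.3% of PRC2ctrl and 83.1% of WT peaks shared and an index of 0.675. Joining peaks under 3 kb apart gave 81.3% of WT peaks shared, an index of 0.687, and median widths of 5.48 kb in PRC2ctrl and 5.15 kb in WT, so the difference in width mostly closed. Shared peaks alone had medians of 6.41 kb in PRC2ctrl and 5.04 kb in WT. Requiring 50% of a peak to be covered gave 77.3% of PRC2ctrl and 76.2% of WT peaks shared. Gene starts alone gave 515 lost genes. That setting reads only the 17492 of 21887 genes with an annotated start in the promoter table, and leaves out the other gene end. Its counts of lost and gained genes are thus not on the same base, and the part of either difference was not tested. Over shared regions rho was 0.846 for the largest and 0.786 for the mean signal. Counts of lost and gained genes under the other settings stayed within 1.5 times: 701 to 919 lost and 449 to 628 gained, apart from the values above. Of the 783 lost genes 107 (13.7%), and of the 615 gained 69 (11.2%), kept their call under all 7 settings tried gene by gene. These included Ezhip, Dppa3, Foxp3, Pira1 and Pramel11. Cdkn1b, Ddx4, Igf1r and Actb lost their call with 5 kb windows, which reach a peak in both lists. Nanog and Id4 lost it where weak WT peaks were cut, and Bak1, Oog3 and Sycp1 where weak PRC2ctrl peaks were cut. Of the net changes of the 33 gene lists, 5 turned sign with equal numbers of peaks, 2 with equal covered length and 6 with 5 kb windows. No paired analysis was possible because each group has 1 list, and for that reason no replicate could be left out.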

Other observations

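Gene lists not described above differed by a few members. Of 39 granulosa and ovarian stroma genes 33 were marked in PRC2ctrl and 34 in WT, and the one lost was Esr1, the estrogen receptor alpha gene. Of 30 blood and endothelial genes 26 were marked in each list, with Ptprc gained and Klf1, an erythroid transcription factor gene, lost; Klf1 was covered over 2.41 kb in PRC2ctrl and 5.46 kb in WT. Of 30 early zygotic genes 14 were marked in each list, with none lost or gained.

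Keratin and keratin-associated genes were marked at 82 of 109 in PRC2ctrl and 83 in WT. Of 94 potassium channel genes 84 were marked in PRC2ctrl and 82 in WT, with no loss, and Kcnc2, marked in both, was covered over 20.0 kb in PRC2ctrl and 12.4 kb in WT. Defensins were marked at 33 of 71 in PRC2ctrl and 31 in WT, cytochrome P450 genes at 57 of 99 in PRC2ctrl and 56 in WT, and claudins at 20 of 35 in PRC2ctrl and 21 in WT. Of 100 genes taken by ribosomal protein symbols, 13 were marked in PRC2ctrl and 9 in WT, with Rpl39l, Rpl3l and Rps6ka2 among those gained; the last is a kinase that the symbol rule takes in, and Rpl39l and Rpl3l are tissue-restricted copies. Of 63 replication-dependent histone genes 1 was marked in PRC2ctrl and 2 in WT.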
